A study of Homo sapiens with 30 samples.

Results

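RNA from the untreated S2A line was compared with RNA from the untreated degron line, with 2 libraries for each line, so 4 of the 30 poly(A) RNA libraries of the study entered the comparison. The labels alone assign these libraries to their groups. Both lines are labelled A549, a lung adenocarcinoma cell line, and both carry a degron on endogenous RPB1, a tag through which the compound dTAGV-1 brings the protein to degradation. The degron line has nothing else by its genotype label. The S2A line also holds a doxycycline-inducible RPB1 labelled S2A. Neither group of libraries had received doxycycline or dTAGV-1, so the comparison asks how the lines differed before any agent was added. Libraries of the same lines after treatment, of untreated lines with WT, Y1F, T4V, S5A or S7A replacement RPB1, and of cells of WT genotype (Mock) served as references. The sources used here do not say whether a line is 1 clone, nor whether the libraries of a group came from separate cultures. If they did not, the p-values measure only a spread between libraries that may be technical. With 1 line on each side, the p-values measure no spread between lines.

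POLR2A encodes RPB1, the catalytic subunit of the polymerase that transcribes protein-coding genes, RNA polymerase II. Its C-terminal domain (CTD) is an array of repeats of a short peptide whose residues are phosphorylated as the polymerase starts, elongates and ends a transcript, and serine 2 is a mark of elongating polymerase to which CDK12, CDK13 and CDK9 contribute. In the S2A protein that serine is replaced by alanine.

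Before the results, the labelled cell type was set against its markers. A549 and lung epithelial markers summed to 31939 and 31982 CPM (counts scaled to a common library size, with sizes adjusted by TMM, the trimmed mean of M-values) in the Mock libraries, and 16 of 18 were at 1 CPM or more. They summed to 118 and 129 CPM in the S2A libraries and to 164 and 183 CPM in the degron libraries, where 4 and 7 of 18 reached 1 CPM. KRT7, a keratin of simple epithelia, was at 1939.9 ± 122 CPM in Mock, at 0 counts in S2A and at 2 counts in degron. KRT19, AKR1C1 and CEACAM6 were at 0 counts in both lines. CDKN2A, a cell cycle inhibitor in a stretch of chromosome 9 that A549 has lost, was at 0 counts in Mock, with 114 and 108 CPM in S2A and 150.0 and 111 CPM in degron. IRS4, an insulin receptor substrate abundant in HEK293 cells, was at 0.0991 ± 0.00474 CPM in Mock, with 930.1 and 939.5 CPM in S2A and 1376 and 1464 CPM in degron. The expression of both lines thus goes against the A549 label, while the Mock libraries bear its markers, and the lines are called here by their genotype labels with no cell type. The endothelial markers summed to 1.98 to 3.85 CPM and the immune markers to 2.47 to 4.49 CPM over the 4 libraries, with TEK and CDH5 at 0 counts in 1 line each and PTPRC and CD3E at 0 counts in both. Fibroblast markers summed to 38.8 and 41.1 CPM in S2A and to 58.9 and 64.6 CPM in degron, nearly all of it COL1A1 and COL3A1, and FAP was at 0 counts in both.

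The 4 libraries held 12041660 to 14984966 counts, within the 10866089 to 17912802 of the whole series, and 25352 to 26716 genes had a count. Mitochondrial genes took 2.97% to 3.37% of the counts. The count-weighted mean transcript GC content was 48.7% and 48.6% in S2A and 49.6% and 48.7% in degron, with degron replicate 1 apart from the other 3 libraries. The 2 S2A libraries differed little beyond counting noise (chi-square per degree of freedom 1.26), and the 2 degron libraries differed more (8.06). POLR2A, the tagged and replaced gene, was at 295 and 296 CPM in the S2A libraries and 461 and 288 CPM in the degron libraries. Its log2 difference, S2A minus degron, was -0.34 ± 0.26 (SE), which did not pass the test (edgeR adjusted p = 0.34), and the degron libraries lay on both sides of the S2A libraries. The other untreated lines had means from 296 ± 8.86 CPM (SD, n = 2) in WT to 569.9 ± 3.56 CPM in S7A. Counts over the whole gene do not separate the endogenous from the inducible copy.

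The untreated lines differed in a large share of the genes tested. Of 19982 genes, 7249 (36.3%) had an adjusted p under 0.05 in the quasi-likelihood test of edgeR, with p-values adjusted by Benjamini and Hochberg's method, which is what "called" means below, and they were split nearly evenly, with 3662 (18.3%) higher and 3587 (18%) lower in S2A. The larger differences were mostly lower. At 2-fold or more, 1976 genes (9.89%) were lower and 946 (4.73%) were higher, and the median log2 difference was -1.10 among the lower genes and 0.66 among the higher. All but 4 of the called genes, 7245, had both S2A libraries on one side of both degron libraries. Such a separation also held for 39.3% of all genes tested on the higher side and 31.2% on the lower. Without a filter on low counts the split was 2650 higher and 4039 lower, and with 1 library left out in turn the number called was between 5024 and 5832, lowest without degron replicate 1.

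**Figure D1:**
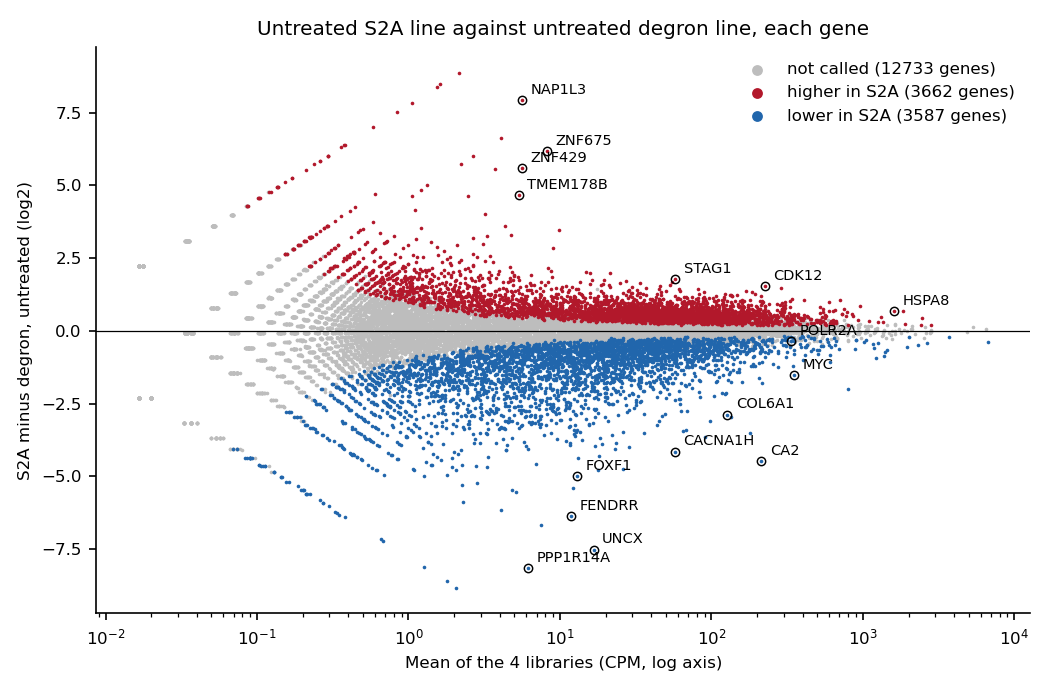
Log2 difference, S2A minus degron, of each gene against its mean over the 4 untreated libraries (CPM, log axis). Red points are the 3662 genes called higher, blue points the 3587 called lower and grey points the genes not called, and circles mark genes named in the text. Points lower than -2.5 extend to higher levels than points above 2.5.

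The higher genes with the largest differences were led by a histone chaperone gene and by zinc-finger genes. NAP1L3, on chromosome X (chrX:93670930-93673568, minus strand, hg38), encodes a nucleosome assembly protein. It was at 11.6 and 10.8 CPM in the S2A libraries and 0.0664 and 0 CPM in the degron libraries. With 1 count in the degron line, its level was 308 times that of degron, with an exact 95% interval of 54.8 to 12186 that covers counting error only (edgeR adjusted p = 4.87e-11). The level was thus a count of 1 against 325, in libraries of like depth.

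ZNF675 (chr19:23525631-23687220, minus strand) and ZNF429 (chr19:21496682-21556270, plus strand) encode KRAB zinc-finger proteins, a family of DNA-binding factors that mostly repress, and lie in the zinc-finger cluster of chromosome 19. ZNF675 was at 15.5 and 17.04 CPM in the S2A libraries and 0.332 and 0.0801 CPM in the degron libraries, with a log2 difference of 6.17 ± 0.42 (SE) (edgeR adjusted p = 3.48e-10). ZNF429 was at 9.76 and 12.2 CPM in the S2A libraries and 0.133 and 0.320 CPM in the degron libraries, with a log2 difference of 5.59 ± 0.32 (SE) (edgeR adjusted p = 4.76e-11). In both, the S2A libraries lay far above the degron libraries, which held 6 counts together for each gene. ZNF83 and ZNF493 of the same family differed by 3.48 ± 0.27 (SE) and 2.84 ± 0.25 (SE) on the log2 scale (edgeR adjusted p = 1.85e-09 and 2.46e-08). In the 10 Mb window of chromosome 19 that starts at 20 Mb, 15 of 17 tested zinc-finger genes were higher and 0 lower, with a median log2 difference of 2.84. Over all chromosomes, 201 of 445 tested zinc-finger genes were higher (against 18.3% of all genes) and 24 lower (18%), with a median of 0.43 against 0.05 over all genes tested. On chromosome 19 as a whole 94 of 206 were higher and 8 lower, so most of the higher ones lay on other chromosomes. The shares of all genes were not matched for GC content, and no GC-corrected count of zinc-finger genes was made. All 32 tested genes of the window had a median transcript GC content of 37.4%. Their median difference was 1.57, and 1.35 with the GC correction. In ZNF726, ZNF681, ZNF85 and ZNF91 of this window the degron libraries had 0 counts. Set against a floor of 3 counts over the group, the S2A level was at least 39.4-fold higher for ZNF726, 29.97-fold for ZNF681, 28.4-fold for ZNF85 and 19.2-fold for ZNF91. KRAB zinc-finger genes are close copies of one another, and reads shared between copies may be split in ways that are not known here.

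The upstream sequences of the chromosome 19 genes show how alike the cluster is. They are the 250 bases before the RefSeq start (GRCh38.p14, 5′ to 3′ on the gene's strand) of ZNF675 and ZNF429, of ZNF726 and ZNF681, which had 0 counts in degron, and of ZNF43, which was not called (0 and 0 CPM in S2A and 0 and 0 CPM in degron). Capitals mark the first copy of TCCAATCAGG, the longest string that at least 90% of the window's zinc-finger genes share, and it holds a CCAAT box, the site of the factor NF-Y. ZNF675 is at chr19:23687213-23687462, minus strand, ZNF429 at chr19:21505352-21505601, plus strand, ZNF726 at chr19:23914636-23914885, plus strand, ZNF681 at chr19:23758892-23759141, minus strand and ZNF43 at chr19:21836183-21836432, minus strand.
ZNF675: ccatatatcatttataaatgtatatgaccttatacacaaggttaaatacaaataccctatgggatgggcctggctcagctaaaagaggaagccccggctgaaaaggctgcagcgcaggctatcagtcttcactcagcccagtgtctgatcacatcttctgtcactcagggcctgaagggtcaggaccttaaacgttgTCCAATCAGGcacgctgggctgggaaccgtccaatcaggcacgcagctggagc
ZNF429: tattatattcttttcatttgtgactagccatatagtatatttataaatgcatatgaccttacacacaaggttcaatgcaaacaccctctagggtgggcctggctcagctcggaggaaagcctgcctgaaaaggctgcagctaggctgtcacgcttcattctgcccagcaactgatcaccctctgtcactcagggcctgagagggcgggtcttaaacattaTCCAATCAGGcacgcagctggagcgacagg
ZNF726: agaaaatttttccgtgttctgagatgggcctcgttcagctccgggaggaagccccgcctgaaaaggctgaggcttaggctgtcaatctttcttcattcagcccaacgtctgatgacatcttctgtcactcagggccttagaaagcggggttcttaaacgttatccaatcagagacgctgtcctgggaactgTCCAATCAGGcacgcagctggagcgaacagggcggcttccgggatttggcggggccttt
ZNF681: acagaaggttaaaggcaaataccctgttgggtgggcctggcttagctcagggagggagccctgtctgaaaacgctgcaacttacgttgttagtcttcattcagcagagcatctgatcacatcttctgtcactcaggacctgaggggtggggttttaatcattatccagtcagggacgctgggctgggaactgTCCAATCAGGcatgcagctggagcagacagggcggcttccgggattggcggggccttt
ZNF43: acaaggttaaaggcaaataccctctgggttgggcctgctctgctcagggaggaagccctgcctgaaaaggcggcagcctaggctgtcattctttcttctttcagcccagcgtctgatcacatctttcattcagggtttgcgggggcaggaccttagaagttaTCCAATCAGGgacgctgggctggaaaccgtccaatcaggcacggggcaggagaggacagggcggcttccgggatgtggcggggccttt

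The string TCCAATCAGG, searched on both strands of these 250 bases, was in 15 of the 16 zinc-finger genes of the window that the RefSeq table holds, and in 0.342% of 35116 promoter windows in all. It was in 13 of 14 that were higher and in 2 of 2 that were not called. The string was chosen because at least 90% of these genes share it. Its counts in the window therefore cannot mark off the genes that differed. Among tested zinc-finger genes elsewhere, 19 of 167 higher genes, 0 of 12 lower genes and 9 of 189 not called held it. A match describes these letters and is not a bound site.

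The other higher genes of largest difference came from many families. TMEM178B, a gene for a membrane protein, was at 9.48 and 11.2 CPM in S2A and 0.398 and 0.401 CPM in degron. STAG1, a subunit of the cohesin ring that holds chromatin loops and sister chromatids, was at 88.9 and 89.8 CPM in the S2A libraries and 24.6 and 27.4 CPM in the degron libraries (1.78 ± 0.13 (SE) on the log2 scale, edgeR adjusted p = 8.72e-10). The long noncoding RNA PURPL, a target of p53, was at 25.5 and 25.1 CPM in S2A and 6.11 and 6.49 CPM in degron. In each of these 3 genes the lines did not overlap, which the choice of the 15 genes required. BORCS8, ZNF185, MYH15, H3C6, AP3B2, ZNF888 and LINC00680 completed the 15, with log2 differences from 1.85 to 2.17. Among the most abundant higher genes, the chaperone HSPA8 was at 2017 and 1951 CPM in S2A and 1206 and 1272 CPM in degron and the RNA helicase DDX5 at 1241 and 1231 CPM in S2A and 649 and 721 CPM in degron, differences of 0.68 ± 0.06 (SE) and 0.85 ± 0.09 (SE) on the log2 scale.

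PPP1R14A, UNCX and ADM2 were among the lower genes with the largest differences. PPP1R14A (chr19:38251237-38256591, minus strand), an inhibitor of myosin phosphatase, was at 0 and 0.0668 CPM in the S2A libraries and 14.3 and 10.3 CPM in the degron libraries. The degron level was 363 times that of S2A, from 344 counts against 1, with an exact 95% interval of 64.8 to 14398 (edgeR adjusted p = 3.58e-08). The homeobox gene UNCX was at 0.0707 and 0.267 CPM in S2A and 38.2 and 28.2 CPM in degron, a log2 difference of -7.52 ± 0.56 (SE) (edgeR adjusted p = 1.91e-09). ADM2, a peptide hormone of the adrenomedullin family, had 115 counts in degron and 0 in S2A, at least 40.5-fold lower against a floor of 3 counts over the group. It was named after its values were seen.

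FOXF1, a forkhead factor of mesoderm-derived tissue, and FENDRR, the long noncoding RNA transcribed away from it, were lower together. FOXF1 (chr16:86510527-86515418, plus strand) was at 0.495 and 1.07 CPM in the S2A libraries and 28.8 and 21.8 CPM in the degron libraries, with a log2 difference of -4.99 ± 0.22 (SE) (edgeR adjusted p = 1.38e-12). FENDRR (chr16:86474529-86509099, minus strand) was at 0.495 and 0.0668 CPM in the S2A libraries and 22.7 and 24.0 CPM in the degron libraries, with a log2 difference of -6.36 ± 0.28 (SE) (edgeR adjusted p = 1.10e-12). Both were near 0 in S2A and above 20 CPM in both degron libraries, and Mock had 0 counts for both.

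CA2, carbonic anhydrase II, was the most abundant of the 15 lower genes of largest difference, at 18.7 and 18.1 CPM in the S2A libraries and 412 and 405 CPM in the degron libraries. Its log2 difference was -4.47 ± 0.09 (SE) (edgeR adjusted p = 2.80e-19), and with transcript length taken into account the authors' TPM values averaged 37.3 in S2A and 842 in degron. CACNA1H, a T-type calcium channel, was at 6.36 and 5.95 CPM in the S2A libraries and 123 and 95.6 CPM in the degron libraries. The growth factor PDGFA was at 0.566 and 0.535 CPM in S2A and 13.5 and 13.1 CPM in degron, and ADCYAP1R1, the receptor of the neuropeptide PACAP, at 2.05 and 1.67 CPM in S2A and 54.5 and 45.7 CPM in degron. The 2 lines were apart in every one of these genes, which the choice of the 15 genes required. BICDL2, HES2, KCNJ4, SCUBE1, ADGRB1, TMEM132E and UNC5A, the rest of the 15, had log2 differences from -4.07 to -6.66.

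**Figure D2:**
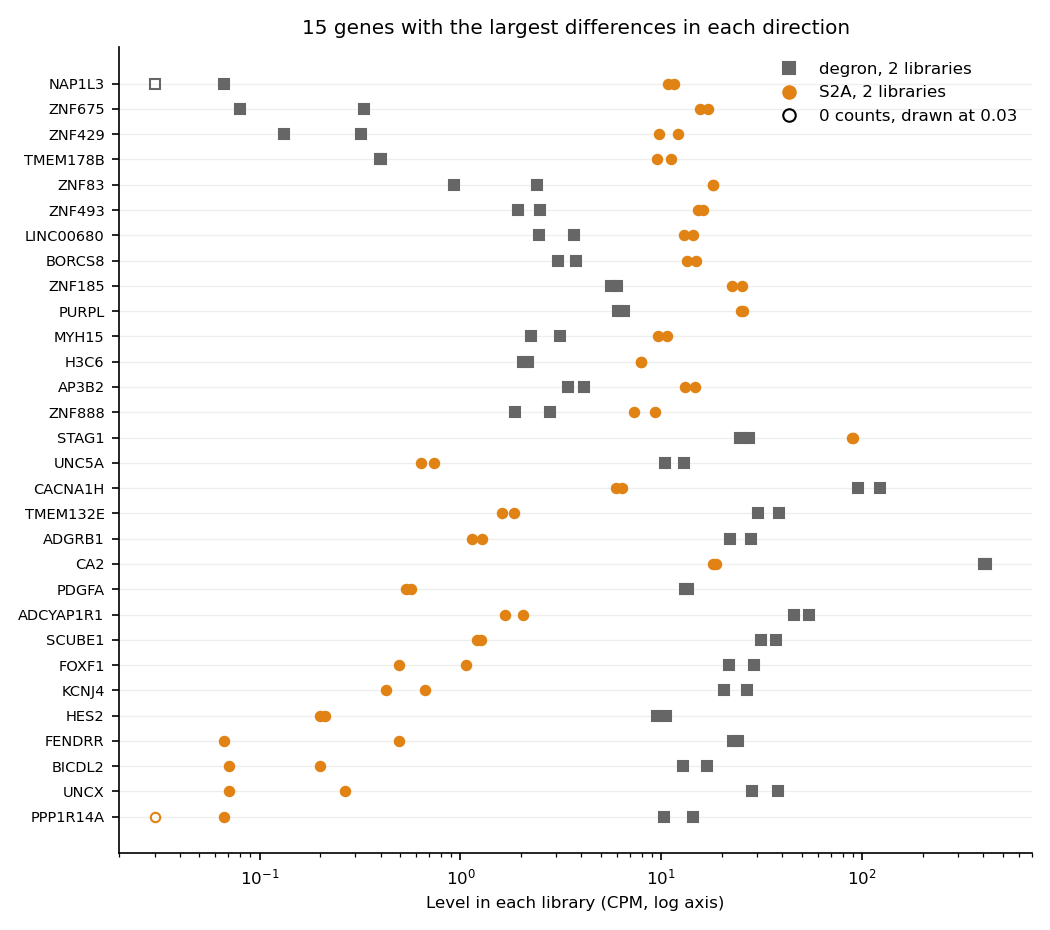
Level in each of the 4 untreated libraries (CPM, log axis) of the 15 genes most different in each direction, out of called genes that average 5 CPM or more. Circles are S2A libraries, squares degron libraries, and open symbols libraries with 0 counts, drawn at 0.03. The lines do not overlap in any of the 30 genes, which the choice of genes required.

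The levels of these genes in the other 5 untreated lines with the degron show which of the 2 lines stood apart. In 2228 of the 3662 higher genes both S2A libraries lay above all 12 other untreated libraries with the degron (15.3% of all genes tested did), and in 2272 of the 3587 lower genes they lay below all 12 (13.8%). The degron libraries were outermost on the opposite side in 1182 of the higher and 1351 of the lower genes (7.83% below and 8.62% above among all genes tested). Called genes were chosen for a difference between these same libraries, so these shares are a description. FOXF1 averaged 24.997 to 38.2 CPM in the other 5 lines, FENDRR 20.4 to 32.3 CPM and PPP1R14A 9.03 to 10.00 CPM, all far above S2A. ZNF675 averaged 2.15 to 3.97 CPM in them, between 16.3 ± 1.10 CPM in S2A and 0.206 ± 0.178 CPM in degron. CA2 averaged 118 to 286 CPM, again between 18.4 ± 0.447 CPM in S2A and 408 ± 4.48 CPM in degron.

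UNCX varied among the other lines too, with means of 2.72 to 32.7 CPM. NAP1L3 ranged over 0.230 to 6.201 CPM there, so neither gene was flat outside S2A. Set against the same degron libraries, the other untreated lines had 2038 (WT), 2207 (Y1F), 2546 (S5A), 2655 (T4V) and 3738 (S7A) called genes, and S2A had 7249. These 6 comparisons share the degron libraries. Set against the mean of the other 5 lines, S2A had 6792 called genes (34.0%) and degron had 3997 (20%). The degron count rested on the degron libraries, falling to 1355 without replicate 1 and to 2394 without replicate 2, and the S2A count fell to 3752 without replicate 2 and 3966 without replicate 1.

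**Figure D3:**
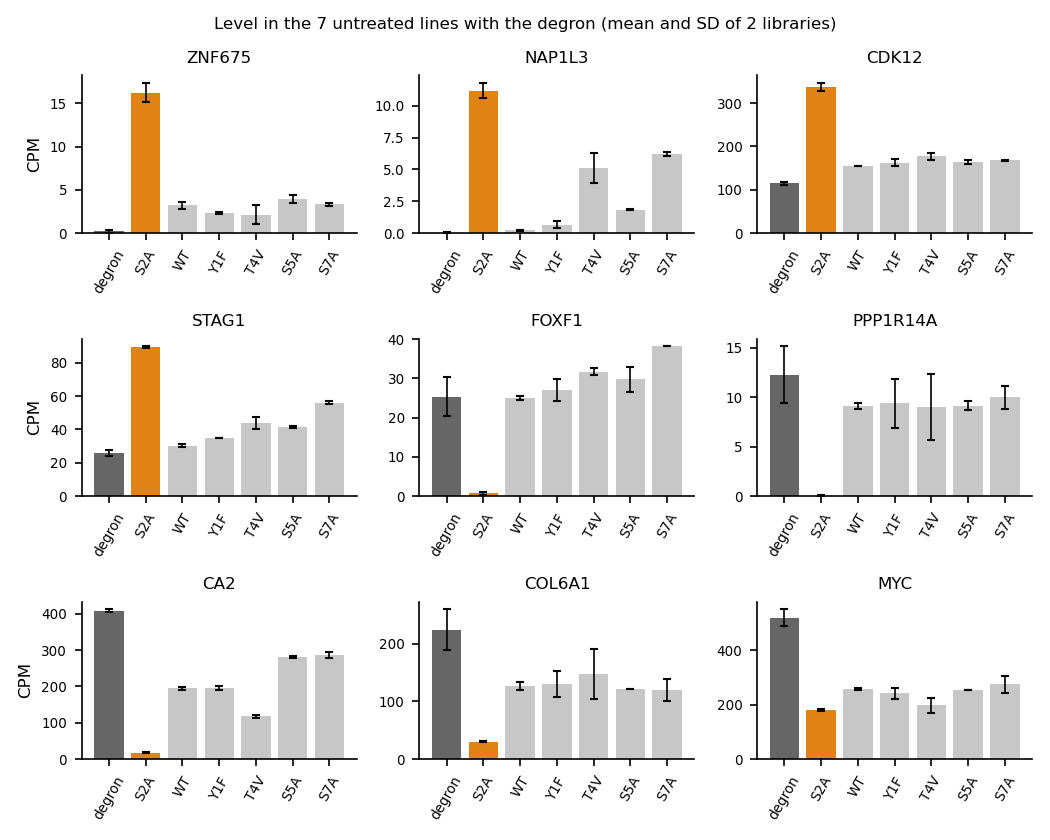
Level of 9 genes (CPM) in the 7 untreated lines with the degron, as bars of the mean of 2 libraries with the SD, from 0. S2A (orange) is highest in ZNF675, NAP1L3, CDK12 and STAG1 and lowest in the other 5 genes, and degron (dark grey) is highest in PPP1R14A, CA2, COL6A1 and MYC.

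Developmental signalling genes were more often lower than higher. Over all genes tested, 18.3% were higher and 18% lower, and the list counts from here on stand beside those shares. Of 24 tested genes of the Notch pathway, in which ligands on one cell activate receptors on the next, 16 were lower and 3 higher, with a median log2 difference of -0.94 against 0.05 over all genes tested, and of -0.56 after correction for GC content. The lower members took in the ligands JAG2 (12.1 and 9.42 CPM in S2A and 132 and 104 CPM in degron), DLL1 and DLL4, the receptors NOTCH1 (-1.77 on the log2 scale) and NOTCH3 (-1.69), and the target HES5 (1.06 and 1.80 CPM in S2A and 24.6 and 18.9 CPM in degron). HES1, the other main target, was higher (0.37 ± 0.13 (SE)). JAG2 differed by -3.46 ± 0.27 (SE) (edgeR adjusted p = 1.90e-09) and HES5 by -3.91 ± 0.32 (SE) (edgeR adjusted p = 7.85e-09). The lines did not overlap in either gene, as in 7245 of the 7249 called genes. With 1 library left out in turn, 13 or 14 members were lower and 1 or 2 higher, with 1 higher without degron replicate 2 or either S2A library.

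Of 40 tested Wnt pathway genes, 19 were lower and 5 higher (median -0.61, and -0.31 with the GC correction), against 18% and 18.3% of all genes tested. The ligands WNT5B and WNT6 differed by -2.91 and -3.42 on the log2 scale, and the secreted Wnt inhibitor NOTUM was at 0.212 and 0.134 CPM in S2A and 4.65 and 4.09 CPM in degron. NKD1 and NKD2, feedback inhibitors inside the cell, were also lower, NKD1 with 10.4 ± 0.0772 CPM in S2A and 57.1 ± 3.62 CPM in degron (edgeR adjusted p = 1.54e-11). RNF43, which removes Wnt receptors from the membrane, was the largest of the higher members (2.25). The higher count was 2 without S2A replicate 1 and 3 without S2A replicate 2 or degron replicate 2.

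Of 31 BMP and TGF-beta pathway genes, 12 were lower and 4 higher (median -0.29), against 18% and 18.3% of all genes tested. BMP2 was at 45.1 and 43.1 CPM in the S2A libraries and 215 and 186 CPM in the degron libraries (-2.19 ± 0.13 (SE), edgeR adjusted p = 3.85e-11), and TGFB1 at 6.72 and 8.22 CPM in S2A and 44.5 and 35.0 CPM in degron (-2.41 ± 0.23 (SE), edgeR adjusted p = 3.68e-08). The BMP antagonists NOG and CHRD were lower as well, at -2.63 and -2.92 on the log2 scale, as were the target genes ID1 (-1.02) and ID2 (-1.10). Ligand, antagonist and target were thus all among the lower members. The higher count was 1 or 2 with any 1 of the 4 libraries left out. Of 34 FGF and EGF receptor family genes and their ligands, 16 were lower and 2 higher (median -0.62), among them the receptors ERBB3 (4.67 and 4.41 CPM in S2A and 30.9 and 28.2 CPM in degron) and FGFR4 (31.7 and 31.3 CPM in S2A and 124 and 98.9 CPM in degron). With a library left out, 0 or 1 was called higher.

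Genes of the extracellular matrix and of cell guidance were also more often lower than higher. The shares over all genes tested were 18% lower and 18.3% higher. Of 30 tested collagen genes, 18 were lower and 0 higher (median -1.16), and with 1 library left out in turn 15 to 18 were lower. COL6A1, a chain of the microfibrillar collagen VI, was at 30.8 and 30.1 CPM in the S2A libraries and 249 and 199 CPM in the degron libraries (-2.88 ± 0.23 (SE), edgeR adjusted p = 4.43e-09). COL4A1 and COL4A2, the paired basement membrane chains, differed by -2.33 ± 0.14 (SE) and -2.15 ± 0.20 (SE) on the log2 scale. The lines did not overlap in any of these 3 genes, as in 7245 of the 7249 called genes. In COL6A1 the 2 degron libraries differed by more than the 2 S2A libraries. Of 34 integrin and laminin genes, 17 were lower and 2 higher (median -0.62), with LAMA5 at 35.6 and 37.8 CPM in S2A and 192 and 152 CPM in degron. Without degron replicate 1, 1 was higher.

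Axon guidance genes encode ligands and receptors that steer growing axons and other migrating cells. They were lower in 31 of 48 tested and higher in 3 (median -0.93), against 18% and 18.3% of all genes tested. The semaphorin SEMA6B was at 2.33 and 2.87 CPM in S2A and 50.0 and 37.2 CPM in degron (-4.06 ± 0.33 (SE), edgeR adjusted p = 3.39e-09), and SEMA3F at 3.32 and 3.54 CPM in S2A and 59.7 and 48.5 CPM in degron (-3.97 ± 0.27 (SE), edgeR adjusted p = 3.67e-10). The plexin receptor PLXND1 differed by -2.77 and the netrin receptor UNC5A by -4.07 on the log2 scale. SLIT2, EPHA3 and EPHA7 were the higher members, and 1 gene was higher without degron replicate 1. Of 44 tested potassium channel genes, 20 were lower and 3 higher (median -0.50), led by KCNJ4 at 0.424 and 0.668 CPM in S2A and 26.7 and 20.6 CPM in degron.

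Glycolysis, cholesterol, HIF and ATF4 lists had more lower than higher members. The shares over all genes tested were 18% lower and 18.3% higher. Glycolysis genes were lower in 8 of 18 and higher in 0 (median -0.27), with the neuronal enolase ENO2 at 7.57 and 6.55 CPM in S2A and 54.6 and 42.2 CPM in degron and the phosphofructokinase PFKP at 56.9 and 52.5 CPM in S2A and 161 and 144 CPM in degron. Scaling by the mitochondrial mRNAs left 5 of 18 lower, and correction for GC content made 3 higher. Cholesterol synthesis and uptake genes were lower in 12 of 26 and higher in 1 (median -0.40). SREBF2, the transcription factor that drives this pathway, was at 155 and 164 CPM in S2A and 376 and 321 CPM in degron (-1.12 ± 0.15 (SE), edgeR adjusted p = 5.12e-06), INSIG1 at 110.1 and 118 CPM in S2A and 249.8 and 273 CPM in degron and squalene epoxidase, SQLE, at 44.7 and 46.4 CPM in S2A and 84.6 and 93.6 CPM in degron. Without degron replicate 1, 7 of 26 were lower, and with the GC correction 6 were higher and the median was -0.22. HIF target genes, the response to low oxygen, were lower in 14 of 28 and higher in 1 (median -0.34), and 0 were higher without degron replicate 2 or either S2A library. ATF4 and integrated stress response genes were lower in 17 of 31 and higher in 3 (median -0.45), with STC2 at 18.6 and 18.7 CPM in S2A and 96.0 and 96.7 CPM in degron and, on the other side, DDIT3 at 8.20 and 9.69 CPM in S2A and 2.85 and 3.28 CPM in degron. With degron replicate 1 or either S2A library left out, 1 of these was higher, and 6 were with the GC correction, where the median was -0.27. Targets of NRF2, the transcription factor of the response to oxidants, did not lean to either side, with 4 higher and 4 lower of 34. Both counts were under the shares of all genes tested, so they are no result about the list.

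MYC, a transcription factor that promotes growth, was the most abundant lower gene among the immediate early genes, at 183 and 178 CPM in the S2A libraries and 541 and 497 CPM in the degron libraries (-1.53 ± 0.13 (SE), edgeR adjusted p = 1.05e-08). The other 5 untreated lines averaged 197 to 274 CPM, above the S2A mean of 180.3 ± 3.68 CPM, and both degron libraries were above all 12 other untreated libraries with the degron. In this list 13 of 34 were lower and 6 higher (median -0.29, and -0.08 with the GC correction), against 18% and 18.3% of all genes tested. The higher count is near the share over all genes, so it is no result about the list. The lower count was 8 without degron replicate 1 or S2A replicate 1, and the higher count 2 to 4 with any 1 library left out.

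Of 33 G2 and mitosis genes, 14 were higher and 0 lower (median 0.28). BIRC5, which encodes survivin, was at 384 and 372 CPM in the S2A libraries and 226 and 231 CPM in the degron libraries (0.73 ± 0.07 (SE), edgeR adjusted p = 3.45e-08), and FOXM1, the transcription factor of this phase, at 157 and 151 CPM in S2A and 97.4 and 97.8 CPM in degron. The called differences were all under 2-fold, from 0.28 for KIF20A to 0.85 for KIF4A. The count was 6 without S2A replicate 2, 7 without degron replicate 1 and 9 without S2A replicate 1, and 22 with the GC correction. Of 41 DNA replication genes, 11 were higher and 6 lower (median 0.17), and the higher count lay between 6 and 8 with 1 library left out and was 23 with the GC correction, while 3 were lower without S2A replicate 1. DESeq2 called 8 higher and 7 lower, and with DESeq2's size factors in edgeR 7 were called in each direction. Among all genes tested, 5856 of 19982 were higher with the GC correction, against 3662 without it. Without the correction, 18.3% of them were higher and 18% lower. The DNA replication counts, this near to those shares and not alike in every fit, are no result about the list.

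Host genes of small nucleolar RNAs, whose spliced transcripts are mostly short-lived, were higher in 12 of 24 and lower in 0 (median 0.29). The shares over all genes tested were 18.3% higher and 18% lower. SNHG12 was at 42.6 and 42.0 CPM in the S2A libraries and 16.9 and 17.1 CPM in the degron libraries (1.31 ± 0.12 (SE), edgeR adjusted p = 1.99e-08) and SNHG20 at 24.3 and 24.99 CPM in S2A and 10.1 and 14.5 CPM in degron. The count was 7 without degron replicate 2 or S2A replicate 1. Replication-dependent histone genes, whose mRNAs normally lack a poly(A) tail and are therefore poorly sampled here, were higher in 11 of 32 and lower in 0 (median 0.85), with H2AC6 at 8.13 and 7.28 CPM in S2A and 1.73 and 1.60 CPM in degron and H3C6 at 7.92 and 7.88 CPM in S2A and 2.06 and 2.16 CPM in degron. Heat shock and chaperone genes were higher in 10 of 21 and lower in 1 (median 0.45). DNAJA1 was at 552 and 548 CPM in S2A and 249 and 275 CPM in degron and DNAJB1 at 238 and 247 CPM in S2A and 119.9 and 112 CPM in degron, while HSPA1B, an inducible HSP70, was the lower one at 352 and 343 CPM in S2A and 546 and 571 CPM in degron. The higher count was 6 without degron replicate 1 or either S2A library.

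Targets of the tumour suppressor p53 were higher in 12 of 30 and lower in 3 (median 0.25), against 18.3% and 18% of all genes tested. MDM2, which encodes the ubiquitin ligase that removes p53, was at 119 and 128 CPM in the S2A libraries and 55.2 and 60.1 CPM in the degron libraries (1.10 ± 0.22 (SE), edgeR adjusted p = 3.66e-04), and PPM1D, a phosphatase of the same feedback, differed by 0.76 ± 0.10 (SE) on the log2 scale. BTG2, BBC3 and GADD45A were the lower members, at -1.09, -1.07 and -1.19. The members thus did not share a direction. The higher count was 6 without S2A replicate 2 and 7 without degron replicate 2, and the lower count was 7 when the 4 libraries were fitted alone.

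CDK12, a kinase of serine 2 (chr17:39461511-39564907, plus strand), was at 344 and 331 CPM in the S2A libraries and 113 and 118 CPM in the degron libraries, a log2 difference of 1.55 ± 0.08 (SE) (edgeR adjusted p = 2.39e-12). Both S2A libraries were above all 12 other untreated libraries with the degron, whose other 5 lines averaged 154 to 177 CPM, and both degron libraries were below them. CDK13, its paralog, was at 91.0 and 85.2 CPM in S2A and 58.9 and 63.3 CPM in degron (0.53 ± 0.09 (SE), edgeR adjusted p = 6.15e-05), while CDK9, the kinase of the pause-release complex P-TEFb, was lower (-0.34 ± 0.13 (SE)). In all, 6 of 24 CTD kinase, cyclin and phosphatase genes were higher and 3 lower (median 0.31), among them PPP1R10, a phosphatase subunit, at 130.5 and 136 CPM in S2A and 60.5 and 60.2 CPM in degron. Over all genes tested 18.3% were higher and 18% lower, and counts this near to those shares are no result about the list. The lower count was 0 with mitochondrial scaling or without S2A replicate 1 and 1 without S2A replicate 2 or degron replicate 2, and the higher count was 12 with the GC correction.

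Among 22 elongation and pausing factors, 8 were higher and 1 lower (median 0.21), against 18.3% and 18% of all genes tested. HEXIM1, which holds P-TEFb inactive, was at 92.8 and 97.2 CPM in the S2A libraries and 46.5 and 40.9 CPM in the degron libraries (1.12 ± 0.11 (SE), edgeR adjusted p = 6.95e-08). ELL2, of the super elongation complex, was the lower member at 23.9 and 23.6 CPM in S2A and 39.3 and 45.3 CPM in degron. The higher count was 4 without degron replicate 1 or S2A replicate 2 and 17 with the GC correction. Of the 11 other polymerase II subunits, 4 were higher and 1, POLR2I, lower, none by 2-fold, and 0 to 2 were called higher when 1 library was left out.

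Of 25 tested clustered protocadherin genes, which give neurons their surface identity, 9 were higher and 0 lower (median 1.60), although most were near 0. The shares over all genes tested were 18.3% higher and 18% lower. PCDHB13 was at 1.20 and 1.14 CPM in the S2A libraries and 0 and 0.0801 CPM in the degron libraries (from 1 count in degron, a ratio of 32.2 with an exact 95% interval of 5.40 to 1308, edgeR adjusted p = 6.00e-04), PCDHB14 at 1.13 and 0.735 CPM in S2A and 0.0664 and 0.0801 CPM in degron and PCDHB15 at 1.06 and 0.935 CPM in S2A and 0.133 and 0.160 CPM in degron. The more abundant PCDHGC3 was at 15.6 and 12.5 CPM in S2A and 5.84 and 6.73 CPM in degron and PCDHGA11 at 6.72 and 9.09 CPM in S2A and 3.25 and 3.28 CPM in degron. Another 28 genes of the list were too low to be tested. DESeq2 called 5 of the 25, and 6 to 8 were called higher with 1 library left out. Many of these transcripts share their last exons, and the rule by which such reads were counted is not known here.

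The 250 bases before the RefSeq starts of PCDHB13 (chr5:141213669-141213918, plus strand), PCDHB14 (chr5:141223093-141223342, plus strand) and PCDHB15 (chr5:141245145-141245394, plus strand), in GRCh38.p14 and 5′ to 3′, are given because these 3 neighbours moved together. Capitals mark TGGTGGCGCT, the longest string that all 3 share.
PCDHB13: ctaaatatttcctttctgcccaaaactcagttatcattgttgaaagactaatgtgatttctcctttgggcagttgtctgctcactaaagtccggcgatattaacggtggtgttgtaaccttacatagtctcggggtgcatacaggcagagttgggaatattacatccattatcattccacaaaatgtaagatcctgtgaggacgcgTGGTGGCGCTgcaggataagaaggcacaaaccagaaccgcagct
PCDHB14: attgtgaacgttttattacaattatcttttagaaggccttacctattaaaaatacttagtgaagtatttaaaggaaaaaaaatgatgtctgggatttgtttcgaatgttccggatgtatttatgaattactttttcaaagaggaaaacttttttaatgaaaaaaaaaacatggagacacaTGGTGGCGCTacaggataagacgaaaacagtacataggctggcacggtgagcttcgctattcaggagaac
PCDHB15: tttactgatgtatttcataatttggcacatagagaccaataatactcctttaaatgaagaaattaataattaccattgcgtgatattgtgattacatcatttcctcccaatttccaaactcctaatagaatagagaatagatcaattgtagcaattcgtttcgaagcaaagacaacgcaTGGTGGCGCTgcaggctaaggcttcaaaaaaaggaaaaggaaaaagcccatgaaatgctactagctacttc

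TGGTGGCGCT, searched on both strands, was in 35 of 35116 promoter windows (0.0997%) and in 7 of the 14 PCDHB genes of the table. It was in 3 of the 4 PCDHB genes that were higher and in 4 of the 10 that were not called or not tested. The string was chosen because the 3 genes above all share it, so these counts cannot say whether it marks off the higher genes.

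Of 38 tested HOX genes, which set position along the body axis, 11 were higher and 10 lower (median 0.12). HOXC genes made up 6 of the 10 lower members, with HOXC10 at 11.5 and 11.9 CPM in S2A and 29.5 and 27.9 CPM in degron, and HOXA and HOXD genes 9 of the 11 higher, with HOXA9 at 95.5 and 101 CPM in S2A and 63.9 and 63.1 CPM in degron. Without S2A replicate 2, 7 were higher, and with the GC correction 19 were (median 0.23). By DESeq2, 9 were higher and 12 lower (median 0.05). The imprinted neighbours IGF2 and H19 were both lower, IGF2 at 1.13 and 1.40 CPM in S2A and 12.2 and 11.1 CPM in degron and H19 at 0.495 and 0.334 CPM in S2A and 5.18 and 3.36 CPM in degron (-3.19 ± 0.26 (SE) and -3.36 ± 0.38 (SE) on the log2 scale). Over 26 tested imprinted genes, 6 were higher and 8 lower (median 0.00), and 1 to 3 were called higher with 1 library left out. Interferon-stimulated and MHC class I genes were lower in 12 of 35 and higher in 4, with IFITM1 at 1.98 and 2.20 CPM in S2A and 21.9 and 19.6 CPM in degron, and 8 were higher with the GC correction. Ribosomal protein genes were lower in 11 of 76 and higher in 1 (median -0.09). Other normalisations and fits moved the lower count between 5 and 23. The counts of this paragraph stand beside 18.3% higher and 18% lower over all genes tested. The lower count of ribosomal protein genes was under that share, so it is no result about the list.

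**Figure D4:**
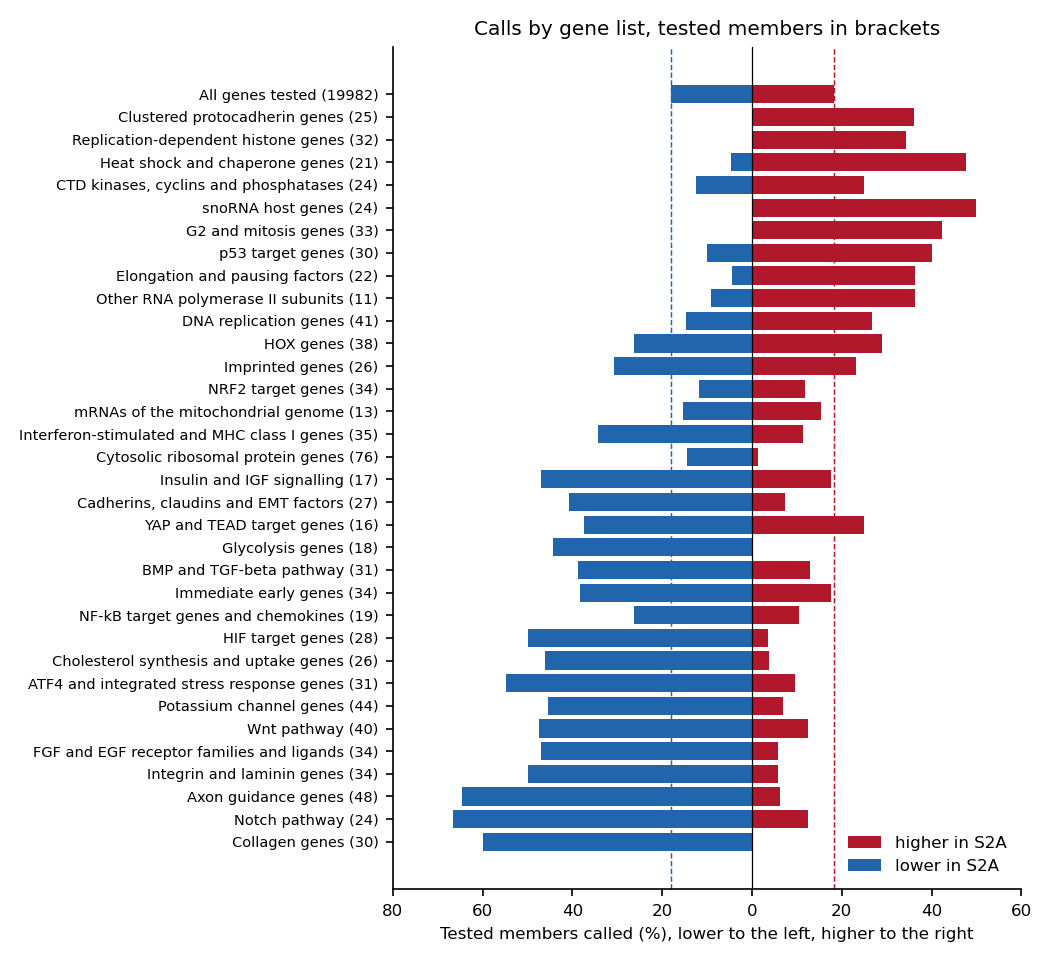
Share of the tested members of each list that were called lower (blue, to the left) or higher (red, to the right) in S2A, with the number tested in brackets and lists ordered by their median log2 difference. Dashed lines mark the 18% lower and 18.3% higher of all genes tested. Collagen, Notch and axon guidance genes extend furthest to the left, and snoRNA host and heat shock genes furthest to the right.

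The lists were chosen with earlier results of these data known, so their counts describe them and are no independent evidence of a direction.

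The differences were unevenly placed along the chromosomes. There were 297 windows of 10 Mb with at least 10 tested genes. Of these, 94 lay above the genome-wide median in all 4 pairings of an S2A with a degron library, and 80 lay below it. The genome-wide medians of the pairings ran from 0.02 to 0.04. The lowest median of all was in the last window of chromosome 13, and the 2 windows before it were also among the 5 named as lowest. From 90 Mb, 18 of 32 genes were lower and 1 higher (median -0.55). From 100 Mb, 12 of 23 were lower and 0 higher (median -0.59), and from 110 Mb, 30 of 42 were lower and 0 higher (median -1.01). The window from 70 Mb had a median of -0.13, so the low windows were the distal ones. RASA3, which turns off Ras, was at 2.40 and 2.87 CPM in S2A and 36.8 and 31.2 CPM in degron and GAS6, a ligand of the receptor AXL, at 2.47 and 1.87 CPM in S2A and 22.1 and 20.2 CPM in degron, both in the last window.

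On chromosome 17 the medians were 0.05 from 0 Mb and from 10 Mb and were larger further along. They were 0.29 from 30 Mb, 0.35 from 40 Mb, 0.33 from 50 Mb, 0.56 from 60 Mb, 0.65 from 70 Mb and 0.42 from 80 Mb. In the window from 70 Mb, 65 of 133 genes were higher and 16 lower. PSMD12, a proteasome subunit in the window before, was at 235 and 250.5 CPM in S2A and 88.0 and 98.4 CPM in degron. CDK12 and HEXIM1 lie on this chromosome, in windows with medians of 0.29 and 0.35, and their differences of 1.55 and 1.12 are larger than these. Both count in their lists as well, and no list was split by position. Whether the differences of other list members go with those of their windows was not tested.

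Chromosome 19 held windows of both kinds. The median was 1.57 from 20 Mb, where the zinc-finger cluster lies, and 0.44 from 10 Mb, while from 40 Mb it was -0.61, with 137 of 302 genes lower and 9 higher. In windows of 5 Mb the cluster was in the first part, and the median from 25 Mb was -0.14. On chromosome 22 every window was below 0, from -0.14 to -0.44, and 160 of 497 genes were lower and 30 higher. After correction for GC content these windows ran from -0.17 to 0.05, so not every one was below 0. With the GC correction the window of chromosome 19 from 40 Mb was at -0.31 and that of chromosome 22 from 50 Mb at -0.05, while the last window of chromosome 13 was at -1.07 and those of chromosome 17 from 60 and 70 Mb at 0.57 and 0.82. The window of chromosome 7 from 60 Mb (0.44) was also among the 5 named as highest. Whether copy number differs between the lines was not tested, since no DNA was measured.

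**Figure D5:**
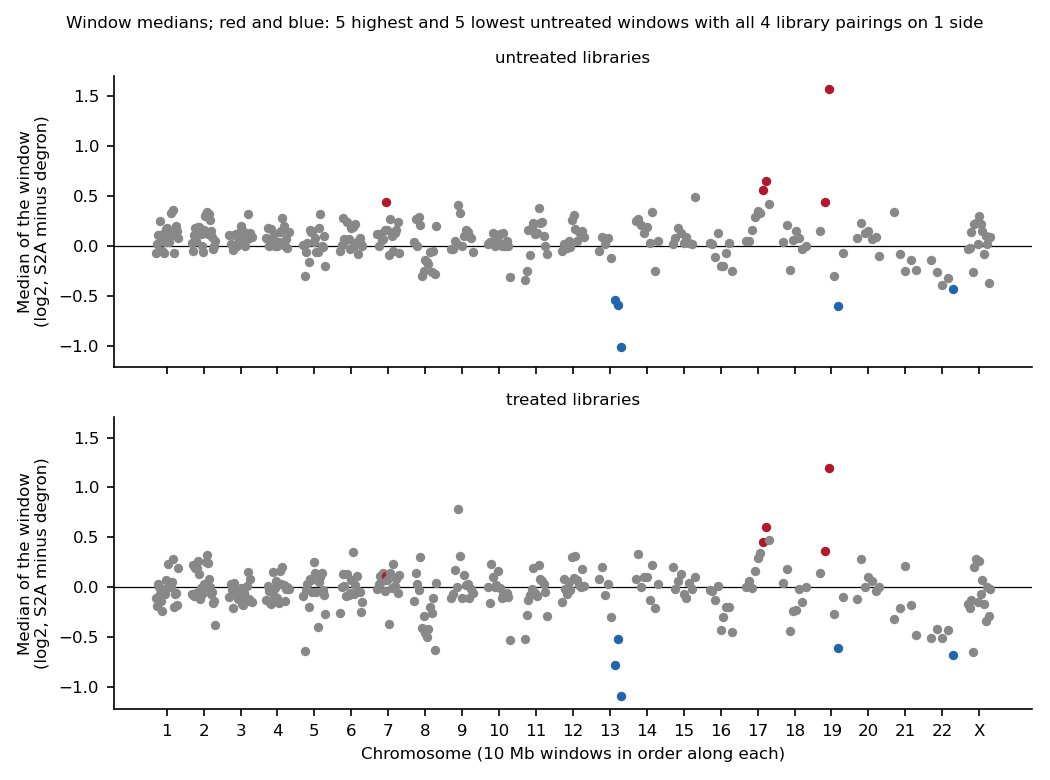
Median log2 difference, S2A minus degron, of the tested genes in each 10 Mb window, in order along each chromosome, in the untreated libraries (top) and the treated libraries (bottom). Red and blue mark the 5 highest and 5 lowest windows of the untreated libraries whose 4 library pairings all lie on 1 side of the genome-wide median. The same windows lie high or low in the treated libraries, except that of chromosome 7, at 0.11.

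In the treated libraries, which share none with the untreated, the same lines were compared after dTAGV-1 (100 nM for 12 h), with doxycycline (2 μg/mL for 24 h) before it in the S2A line alone. They therefore differed in the agents and in the replacement protein as well as in the line. There 8714 genes were called (43.6%), 4200 higher and 4514 lower. Of the 3662 genes higher in the untreated libraries, 2269 (62.0%) were higher in the treated, which is 54.0% of the 4200, and 48 were lower. Of the 3587 lower genes, 2654 (74.0%) were lower in the treated, which is 58.8% of the 4514, and 88 were higher. Of all genes tested, 21% were higher and 22.6% lower in the treated libraries.

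FOXF1 was again low in treated S2A, at 0.499 ± 0.0138 CPM in S2A and 10.7 ± 0.144 CPM in degron, and so was PPP1R14A, at 0 ± 0 CPM in S2A and 12.2 ± 5.22 CPM in degron, where treated S2A had 0 counts. NAP1L3 was again high in S2A, at 10.6 ± 0.176 CPM in S2A and 0 ± 0 CPM in degron. ZNF675 was at 20.8 ± 1.40 CPM in S2A and 0.207 ± 0.0336 CPM in degron, CDK12 at 176 ± 0.264 CPM in S2A and 57.3 ± 2.50 CPM in degron and COL6A1 at 44.8 ± 3.46 CPM in S2A and 272 ± 63.7 CPM in degron, each again apart between the lines. Collagen genes were lower in 18 of 30 in the treated libraries too, 14 of them lower in both, and axon guidance genes in 30 of 48, with 25 in both. Not every list did so. Of the 31 BMP and TGF-beta pathway genes, 10 were higher and 6 lower in the treated libraries (median 0.21), and of the 31 ATF4 and integrated stress response genes 9 were higher and 12 lower (median 0.17). The last window of chromosome 13 had a treated median of -1.09.

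MYC went the other way, at 102 ± 8.18 CPM in S2A and 23.1 ± 3.26 CPM in degron, higher in treated S2A by 2.14 on the log2 scale (edgeR adjusted p = 1.12e-10). BMP2 was at 8.42 ± 1.237 CPM in S2A and 8.06 ± 0.0350 CPM in degron and HES5 at 0.453 ± 0.281 CPM in S2A and 0.442 ± 0.192 CPM in degron, with log2 differences of 0.06 and 0.04. Immediate early genes were higher in 22 of 34 and lower in 2 in the treated libraries. The difference between the treated and the untreated comparison itself passed the test in 1509 genes (7.55%), the 3 above among them.

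The direction also went with GC content. In the 3807 genes with the lowest transcript GC content (up to 41.3%), 20.2% were higher and 7.30% lower (median 0.20), and in the 3807 with the highest (from 58.2%) 10.5% were higher and 29.1% lower (median -0.19). After correction of each library for GC content the medians of these 2 sets were 0.02 and 0.17, and 10142 genes were called, 5856 higher and 4286 lower. The correction removes any true difference that goes with GC content together with a technical one, and the 2 were not told apart. Of the called genes named here by the naming rules, 277 of 280 stayed called, and 0 changed sign.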

How the data were processed

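Poly(A) RNA-seq was available as gene counts for 30 libraries, and the comparison used the 2 untreated S2A and 2 untreated degron libraries. Per the submitters' processing notes, the tools were Trim Galore 0.6.2, STAR 2.7.3a, featureCounts 2.0.1 and DESeq2 1.24.0, with builds hg38 and dm6. For the settings, annotation, strand and multi-mapping reads: not given in the sources used here. Fly cells were added as a spike-in per the labels' protocols, but no fly genes are among the rows, so no spike-in scaling was made. The deposited count columns hold raw counts for 61578 genes, per the file headers. The deposited TPM columns, per the file headers, give the authors' length-scaled values, and were used only to state CA2.

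Counts were fitted with edgeR 4.0.16 in R 4.3.3 (TMM scaling, filterByExpr with a minimum count of 10 and a minimum total of 15, robust quasi-likelihood) with 1 coefficient for each of 15 groups over all 30 libraries, which leaves 15 residual degrees of freedom. Of the genes, 19982 were tested and Benjamini-Hochberg adjustment ran over all of them. On simulated data for this comparison with 19982 genes, 36% of 100 genes changed 1.5-fold and 96% of 100 changed 2-fold were recovered, and 3.65% of calls were false. The simulation gave all genes and groups the same spread (dispersion 0.0122) and no shift with GC content. The real degron libraries differed from each other more than the S2A libraries did. These shares therefore need not hold for the real comparison. Standard errors are the log2 difference over the square root of F. Gene coordinates and transcript GC content came from GENCODE 29 (hg38), which matched 19035 of the tested genes, and promoter sequences from RefSeq (GRCh38.p14). Intervals and floors cover counting error only, at 95% confidence and 3 counts.

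The genes described are POLR2A, the 15 largest differences each way at 5 CPM or more without overlap, the 10 most abundant differing by 1.5-fold, up to 6 members of each of 42 lists, up to 4 genes of each named window, and up to 10 genes that also differed in the treated libraries and from the other lines. Genes outside these rules were named after their values were seen. One list member that the rules name is not reported here. The comparison, the lists and the rules were chosen with earlier results of these data known. Alternatives covered scaling (DESeq2 1.42.0 size factors, mitochondrial mRNAs), filters, DESeq2, other sets of libraries, a replicate block, GC correction and each library left out. Values were tabulated with Python 3.11.15, pandas 2.3.3 and scipy 1.17.1.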

Additional observations from a re-analysis of the deposited data

Results flagged for a closer look

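In 27 of the genes described, the log2 difference between S2A and degron was not the same in the treated and the untreated libraries, by the test of the difference itself in the fit over all genes (edgeR, adjusted p under 0.05, as for 7.55% of all genes tested). The naming rules gave 280 called genes, so 27 is near that share, and the number is no result about the genes described. The values below are the treated minus the untreated difference, with 2 libraries in each of the 4 groups, and what lies behind them was not tested.

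The difference turned sign, called in both, in MYC (3.66 ± 0.19 (SE)), ID1 (2.23 ± 0.28 (SE)), ID2 (3.08 ± 0.11 (SE)) and HSPA1B (2.54 ± 0.14 (SE)), each lower in untreated and higher in treated S2A. ID1 and ID2 encode inhibitors of differentiation factors that BMP signals induce.

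Genes lower in untreated S2A that did not pass the test in the treated libraries were BMP2 (2.25 ± 0.20 (SE)), DLL4 (2.17 ± 0.40 (SE)), HES5 (3.95 ± 0.91 (SE)), NOTUM (3.78 ± 0.77 (SE)), GADD45A (1.05 ± 0.24 (SE)), SQLE (0.86 ± 0.15 (SE)), IRS4 (0.86 ± 0.16 (SE)) and ADM2 (7.79 ± 1.22 (SE)). The ADM2 value depends on the prior count, since untreated S2A had 0 counts. MYH15 (-2.27 ± 0.26 (SE)) was higher in untreated S2A and did not pass in the treated.

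The difference kept its side and was smaller in TMEM178B (-2.60 ± 0.40 (SE)), ZNF888 (-1.10 ± 0.31 (SE)), PDGFA (3.16 ± 0.52 (SE)), CA2 (1.37 ± 0.12 (SE)) and HOXC10 (0.97 ± 0.15 (SE)). It kept its side and was larger in HEXIM1 (1.12 ± 0.15 (SE)), HES1 (1.66 ± 0.19 (SE)), HOXA9 (1.15 ± 0.16 (SE)), DDIT3 (1.06 ± 0.33 (SE)), SNHG20 (0.82 ± 0.22 (SE)), PPM1D (0.63 ± 0.15 (SE)), HSPA8 (0.62 ± 0.09 (SE)) and DNAJB1 (0.58 ± 0.15 (SE)). COL3A1 (-0.67 ± 0.20 (SE)) was lower in the treated libraries and not called in the untreated.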

How the results depend on the processing

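The number of genes called between untreated S2A and degron was 7249, and 5101 to 10142 under the other settings, with 6317 by DESeq2 and 8151 with the 4 libraries fitted alone. Counts that moved by more than 1.5 times were those of higher genes: 2265 among genes at 5 CPM or more, 5856 with the GC correction and 5819 with that correction and the replicate block. Left out 1 library at a time, 2220 to 2729 genes were higher. For S2A against the other 5 lines, the higher count was 2033 with mitochondrial scaling, 2249 at 5 CPM or more, 5813 with the GC correction and 5772 with the block added, and with 1 library left out 3752 to 7187 were called, 1572 to 3889 higher and 2023 to 3551 lower, lowest without an S2A library. For degron against those lines, mitochondrial scaling gave 1115 higher and 3945 lower, the GC correction 7297 in all and 3835 lower, and with the block 7214 and 3791. With 1 library left out 1355 to 4551 were called, 927 to 2482 higher and 428 to 2069 lower, lowest without a degron library. Without the low-count filter POLR2A was called at -0.43 (edgeR adjusted p = 0.00039). Without degron replicate 1 its log2 difference was 0.03 and without replicate 2 it was -0.64, so the degron libraries set its sign. The 5 Mb window of chromosome 19 from 25 Mb had a median of -0.14, opposite to the 10 Mb window that holds it. The cause was not tested in any of these. The labels do not say that replicate numbers pair libraries. Deviations of same-numbered S2A and degron libraries had a correlation of 0.09 over 11654 genes, and over pairs of the 15 groups it ran from -0.90 to 0.87. The replicate block gave 7087 calls, 3554 higher and 3533 lower. Of 280 named called genes, 237 to 256 stayed called with 1 library left out and 0 changed sign under any setting. Medians of chromosome arms were not run, since no centromere positions were used here. The fits without Mock (6919) and on nuclear protein-coding genes (6462) were added after seeing the data.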
